A study of Mus musculus with 12 samples.

Results

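The genes described here are 8 transcription factors that drive macrophages to become osteoclasts: *Nfatc1*, *Fos*, *Fosl1*, *Fosl2*, *Jdp2*, *Mitf*, *Tfec* and *Prdm1*. They were chosen by gene symbol, 8 of the 24421 genes listed for every library, and all 8 were found. On GRCm38 (GENCODE vM21), *Fos* lies at chr12:85473890-85477273 and *Jdp2* at chr12:85599027-85639878, close together on the plus strand. *Mitf* lies at chr6:97807052-98021349 (plus), *Tfec* at chr6:16833373-16898441 (minus), *Fosl2* at chr5:32135801-32157842 (plus), *Fosl1* at chr19:5447547-5455946 (plus) and *Prdm1* at chr10:44437177-44528501 (minus). The measurement was RNA-seq of bone marrow macrophages (BMMs), the precursors that form osteoclasts in culture, from C57BL/6 mice. All cells were grown for 3 days with M-CSF, the growth factor of macrophages, and 2 of the 6 conditions then received RANKL, the cytokine that drives osteoclast formation, for 5 days. WT cells (Mir182+/+LysMcre(+)) and Mir182ΔM/ΔM cells (Mir182flox/floxLysMcre(+)) were measured without RANKL (basal) and after RANKL. Control cells (LysMcre(+)) and Mir182mTg cells (LSL-Mir182LysMcre(+)) were measured without RANKL only. Each condition had 2 replicates, 12 libraries in all.

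All 4 genotypes carry LysMcre, a Cre recombinase under the lysozyme M promoter, which acts in the myeloid lineage. In Mir182ΔM/ΔM mice it deletes the floxed *Mir182* gene, and in Mir182mTg mice it removes a stop cassette in front of a miR-182 transgene. The ages of the mice were not given in the labels. Nothing there says whether the replicates came from separate mice, while the paper calls them independent biological replicates. Replicate 1 was labelled polyA RNA and replicate 2 total RNA, so the spread between replicates also holds this difference of library type. The p-values, where the replicate number is not a block in the fit, measure that whole spread, which may be technical. In such bulk samples, fewer cells of a type and less RNA per cell cannot be told apart.

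Osteoclasts are multinucleated cells that resorb bone. RANKL activates Fos, a subunit of the dimeric AP-1 factors, and calcium signals that bring NFATc1 into the nucleus, where NFATc1 and AP-1 switch on *Nfatc1* itself and then the genes of bone resorption. Fosl1 (Fra-1) and Fosl2 (Fra-2) are the Fos relatives that can take the place of Fos in AP-1, and Jdp2 is a Jun dimerization partner. Mitf and Tfec belong to the MiT family of basic helix-loop-helix factors, which act with PU.1 on osteoclast genes. Blimp1, the product of *Prdm1*, is a repressor that removes brakes on differentiation such as *Irf8* and *Bcl6*.

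The deleted or added gene product is miR-182, a microRNA that lowers the mRNAs it pairs with. Its mature sequence from RefSeq (GRCm38.p6, chr6:30165962-30165986, minus strand) is shown because the genotypes differ in it, with the seed (bases 2 to 8) in capitals.
mmu-miR-182-5p: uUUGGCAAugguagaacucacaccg

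Letters that pair with this seed were searched in the annotated 3′ UTRs of the 8 genes (GENCODE vM21, GRCm38), as TTGCCAA or as TGCCAAA, which together form the 8-base match TTGCCAAA. *Fosl2*, *Jdp2*, *Mitf* and *Prdm1* held at least 1 match, which is 4 of 8 genes, and 24.9% of the 10902 tested genes with an annotated 3′ UTR did. No match was found in the 3′ UTRs of *Fos*, *Fosl1*, *Tfec* or *Nfatc1*. The 6 matches lie in 3′ UTRs, in windows of 8 bases, at chr5:32153991-32153998 (*Fosl2*, plus strand), chr12:85639248-85639255 (*Jdp2*, plus), chr6:98019994-98020001 and chr6:98020941-98020948 (*Mitf*, plus), and chr10:44438862-44438869 and chr10:44439061-44439068 (*Prdm1*, minus). They are shown in that order, on the strand of the gene and with flanking bases, because they tell which of the 8 mRNAs hold letters that miR-182 could pair with. The pairing letters are in capitals, and a match describes the letters alone.
Fosl2, 8-base match: acaggttgggtTTGCCAAAcgtctaattac
Jdp2, 7-base match: gagccagagaggTGCCAAAccaggtagtag
Mitf, 7-base match: ttttactgacagTGCCAAAttctttcatca
Mitf, 8-base match: accttctgactTTGCCAAAaactgtgcaag
Prdm1, 7-base match: acaggaaggctTTGCCAAcctgtctcccaa
Prdm1, 8-base match: aggttttgataTTGCCAAAgtcatgtggtt

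Promoters of 6 of the 8 genes were in the RefSeq table (GRCm38.p6, 250 bases before to 50 after each start, 10 promoters in all), and *Nfatc1* and *Fosl1* had no entry. Both strands were searched for the AP-1 letters TGANTCA, the cAMP response element TGACGTCA, the NFAT core GGAAA, and the E-box letters CACGTG and CATGTG. Over all 32851 promoters of this length the shares that held them were 7.81%, 1.79%, 61.3%, 7.15% and 14.2%. *Prdm1* held 1 AP-1 match, 48 to 42 bases before its start. Promoter 3 of the 3 of *Mitf* held 1 cAMP response element and 1 NFAT core. The *Tfec* promoter held 2 NFAT cores, of which 1 overlaps the start itself. Promoter 3 of *Jdp2* and promoter 2 of *Mitf* each held 1 NFAT core. The promoters of *Fos* and *Fosl2*, promoters 1 and 2 of *Jdp2* and promoter 1 of *Mitf* held none of these letters. No E-box match was found in any of the 10. The promoters of *Prdm1* (chr10:44458699-44458998, minus strand), *Mitf* (promoter 3, chr6:97991533-97991832, plus strand) and *Tfec* (chr6:16898392-16898691, minus strand) are shown because they hold these matches, which are in capitals.
Prdm1: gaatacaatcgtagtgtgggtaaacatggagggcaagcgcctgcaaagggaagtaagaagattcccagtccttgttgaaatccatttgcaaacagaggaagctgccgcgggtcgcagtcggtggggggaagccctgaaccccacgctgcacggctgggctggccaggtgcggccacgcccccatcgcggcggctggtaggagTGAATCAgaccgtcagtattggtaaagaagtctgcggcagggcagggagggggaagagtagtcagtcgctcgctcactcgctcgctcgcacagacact
Mitf: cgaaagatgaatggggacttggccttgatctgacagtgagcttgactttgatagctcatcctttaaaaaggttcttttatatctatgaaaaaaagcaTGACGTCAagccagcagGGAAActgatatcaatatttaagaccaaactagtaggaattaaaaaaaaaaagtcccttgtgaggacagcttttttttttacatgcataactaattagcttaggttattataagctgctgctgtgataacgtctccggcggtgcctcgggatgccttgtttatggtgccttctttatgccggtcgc
Tfec: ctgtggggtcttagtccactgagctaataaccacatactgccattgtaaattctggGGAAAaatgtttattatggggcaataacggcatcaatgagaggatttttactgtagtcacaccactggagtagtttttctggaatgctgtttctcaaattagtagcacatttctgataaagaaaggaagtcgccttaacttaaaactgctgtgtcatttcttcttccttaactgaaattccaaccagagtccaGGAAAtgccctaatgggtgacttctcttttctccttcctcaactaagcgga

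The libraries held 24951280 to 33050619 reads on genes, so that 3 reads correspond to 0.0908 to 0.120 CPM, the reads of a gene per 1000000 reads on genes. The summed CPM of 7 macrophage markers was 5683 to 8655 in every library, and that of 8 osteoclast markers was 39.7 to 74.9 without RANKL, 9938 to 10270 in WT after RANKL and 3070 to 3079 in Mir182ΔM/ΔM after RANKL. The row of *Mir182* held 79 and 123 reads in the Mir182mTg libraries, 1 read in 1 basal Mir182ΔM/ΔM library and 0 in the others, WT included, so it shows the transgene but cannot check the deletion. The libraries of WT after RANKL stood apart from those of WT without RANKL in 2 genes used as checks. These 2 genes were named with earlier results of these data known, and they need not be the only ones. *Lyz2* was at 4117 to 7062 CPM in the 6 libraries of WT after RANKL, Control and Mir182mTg, and at 22.5 to 44.0 CPM in the 6 libraries of basal WT and of Mir182ΔM/ΔM. *Ifi202b* ran the other way, at 0 to 1.12 CPM in the first 6 and 82.1 to 152.4 CPM in the second 6. The effect of RANKL in WT, and the genotype difference after RANKL, cannot be told apart from whatever separates these sets. The RANKL response within Mir182ΔM/ΔM and the basal genotype comparison lie within the second set.

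All 8 genes were higher in WT after RANKL than in basal WT, where 40.6% of all genes tested were. In Mir182ΔM/ΔM 5 of the 8 rose with RANKL, where 30.4% of all genes tested did. In WT cells the largest changes were in *Jdp2*, *Fosl2*, *Fos* and *Prdm1*, 15.9- to 57.6-fold by mean CPM. In Mir182ΔM/ΔM cells *Fos* rose 15.8-fold, against 19.1-fold in WT, *Fosl1* rose further than in WT, *Fosl2*, *Jdp2* and *Prdm1* rose less, and *Nfatc1*, *Mitf* and *Tfec* did not pass the test. The summed CPM of the 8 genes was 2356 and 2589 in the WT libraries after RANKL, 704 and 763 in those of Mir182ΔM/ΔM, and 296 to 387 in the 8 untreated libraries.

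**Figure D1:**
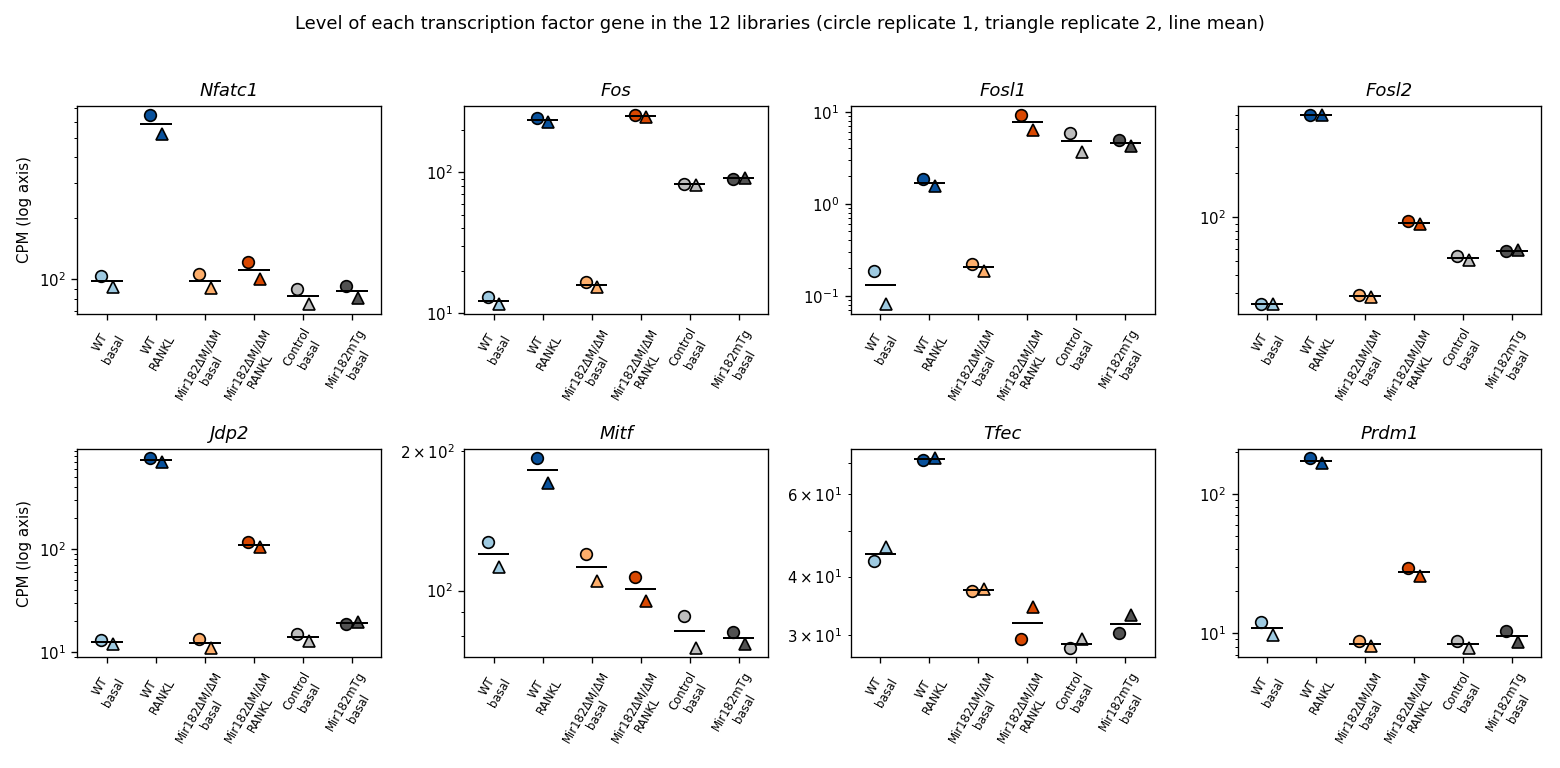
Level of each of the 8 genes in CPM (log axis, scale set for each gene) in the 12 libraries, by condition; circles are replicate 1, triangles replicate 2 and lines the mean of the 2. *Fos* after RANKL lies from 229.9 to 255.9 CPM in both genotypes, whereas *Nfatc1*, *Fosl2*, *Jdp2* and *Prdm1* are far higher in WT than in Mir182ΔM/ΔM.

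*Fos* encodes the AP-1 subunit without which osteoclasts do not form. It was at 13.1 and 11.5 CPM in basal WT, 241.7 and 229.9 CPM in WT after RANKL, 16.5 and 15.4 CPM in basal Mir182ΔM/ΔM, and 255.9 and 248.6 CPM in Mir182ΔM/ΔM after RANKL. The 4 libraries after RANKL were all far above the 4 basal ones, and the Mir182ΔM/ΔM pair lay just above the WT pair. The log2 change on the log2(CPM + 1) scale was 4.15 ± 0.08 (SE) in WT (adjusted p = 1.0e-07, limma) and 3.90 ± 0.08 in Mir182ΔM/ΔM (adjusted p = 1.8e-07). After RANKL the Mir182ΔM/ΔM level exceeded WT by 0.10, with a 95% interval from -0.09 to 0.29 (adjusted p = 0.37). With TMM factors, which rescale libraries by the bulk of their genes, this difference was 0.25 and passed the test (adjusted p = 0.039). The responses differed by -0.25 between the genotypes (adjusted p = 0.16), and by the same amount with the replicate number as a block (adjusted p = 0.0022), a fit in which 42.8% of all genes were called lower and 16.1% higher.

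*Fosl2* encodes Fra-2. It was at 24.95 and 24.97 CPM in basal WT, 499.8 and 502.0 CPM in WT after RANKL, 28.9 and 28.1 CPM in basal Mir182ΔM/ΔM, and 93.0 and 88.9 CPM in Mir182ΔM/ΔM after RANKL. The replicates were nearly equal in every condition and the WT pair after RANKL stood 5.51-fold above the Mir182ΔM/ΔM pair. The log2 change was 4.27 ± 0.06 in WT and 1.64 ± 0.06 in Mir182ΔM/ΔM (adjusted p = 6.0e-08 and 1.3e-06). The difference between these responses, -2.63 ± 0.09, ranked 7 of 11691 genes by its p-value (adjusted p = 1.4e-05).

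*Fosl1* encodes Fra-1, which is itself a known target of Fos in this lineage. It was scarce, with 6 and 2 reads in basal WT, 46 and 43 reads in WT after RANKL, 6 and 5 reads in basal Mir182ΔM/ΔM, and 280 and 160 reads in Mir182ΔM/ΔM after RANKL. These correspond to 0.183 and 0.0802, 1.84 and 1.55, 0.222 and 0.187, and 9.20 and 6.30 CPM. For 2 reads the exact Poisson interval reaches 7.22 reads, an interval that covers counting error only. After RANKL *Fosl1* was 4.58-fold higher in Mir182ΔM/ΔM than in WT by mean CPM, where 6 of the other 7 genes were lower and *Fos* was 1.07-fold higher. The log2 change was 1.25 ± 0.17 in WT and 2.84 ± 0.17 in Mir182ΔM/ΔM, and the difference of responses was 1.59 ± 0.23 (adjusted p = 0.0029). With so few basal reads the 2 responses depend on the pseudocount of 1. They were 2.98 and 4.67 with a pseudocount of 0.1 and 3.36 and 5.18 with edgeR on the reads, and by mean CPM 12.8-fold and 37.9-fold. The genotype difference after RANKL was 1.68 ± 0.17 (adjusted p = 2.1e-04). On the read numbers themselves, edgeR gave 2.35 for it (adjusted p = 3.2e-04), but 1.82 with adjusted p = 0.15 for the difference of responses.

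*Jdp2* encodes a Jun partner that mice need for normal osteoclast numbers. It was at 13.12 and 12.02 CPM in basal WT, 755.8 and 691.4 CPM in WT after RANKL, 13.58 and 11.04 CPM in basal Mir182ΔM/ΔM, and 116.6 and 104.6 CPM in Mir182ΔM/ΔM after RANKL. No group after RANKL overlapped another, and the basal groups did overlap. This was the largest response of the 8, 57.6-fold in WT and 8.98-fold in Mir182ΔM/ΔM by mean CPM. The responses were 5.74 ± 0.11 and 3.07 ± 0.11 on the log2 scale and differed by -2.67 ± 0.16 (adjusted p = 8.1e-05).

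*Nfatc1* encodes the factor at the top of the osteoclast program. It was at 104.0 and 91.9 CPM in basal WT, 646.9 and 522.8 CPM in WT after RANKL, 106.5 and 90.3 CPM in basal Mir182ΔM/ΔM, and 122.4 and 100.5 CPM in Mir182ΔM/ΔM after RANKL. WT after RANKL stood alone, and the Mir182ΔM/ΔM libraries with and without RANKL overlapped. The log2 change was 2.56 ± 0.15 in WT (adjusted p = 6.9e-06) and 0.18 ± 0.15 in Mir182ΔM/ΔM, with a 95% interval from -0.17 to 0.52 (adjusted p = 0.34). With the replicate number as a block the Mir182ΔM/ΔM change, of the same size, passed the test (adjusted p = 1.6e-04). The responses differed by -2.38 ± 0.21 (adjusted p = 2.9e-04).

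*Prdm1* encodes Blimp1. It was at 11.9 and 9.70 CPM in basal WT, 178.9 and 165.8 CPM in WT after RANKL, 8.81 and 8.02 CPM in basal Mir182ΔM/ΔM, and 29.2 and 25.9 CPM in Mir182ΔM/ΔM after RANKL. Both genotypes rose clear of their basal libraries, WT 15.9-fold and Mir182ΔM/ΔM 3.27-fold. The log2 changes of 3.88 ± 0.12 and 1.60 ± 0.12 differed by -2.28 ± 0.17 (adjusted p = 1.6e-04).

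*Mitf* and *Tfec*, the MiT family members, were expressed before RANKL and moved least. *Mitf* was at 127.4 and 112.7 CPM in basal WT, 192.9 and 170.8 CPM in WT after RANKL, 120 and 105 CPM in basal Mir182ΔM/ΔM, and 106.9 and 94.8 CPM in Mir182ΔM/ΔM after RANKL. *Tfec* was at 43.3 and 46.2, 70.8 and 71.5, 37.2 and 37.7, and 29.4 and 34.4 CPM in the same order. In WT both rose above every basal library, and in Mir182ΔM/ΔM the *Mitf* values with and without RANKL overlapped while those of *Tfec* after RANKL were the lower ones. The log2 change of *Mitf* was 0.60 ± 0.11 in WT (adjusted p = 0.0024) and -0.16 ± 0.11 in Mir182ΔM/ΔM (adjusted p = 0.26). That of *Tfec* was 0.66 ± 0.09 in WT (adjusted p = 5.2e-04) and -0.23 ± 0.09 in Mir182ΔM/ΔM (adjusted p = 0.062). The responses differed by -0.75 ± 0.15 for *Mitf* (adjusted p = 0.012) and -0.89 ± 0.13 for *Tfec* (adjusted p = 0.0025). With the replicate block the 2 changes in Mir182ΔM/ΔM passed as decreases (adjusted p = 3.3e-04 and 8.3e-04), and with TMM factors that of *Tfec* did (-0.27, adjusted p = 0.036).

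**Figure D2:**
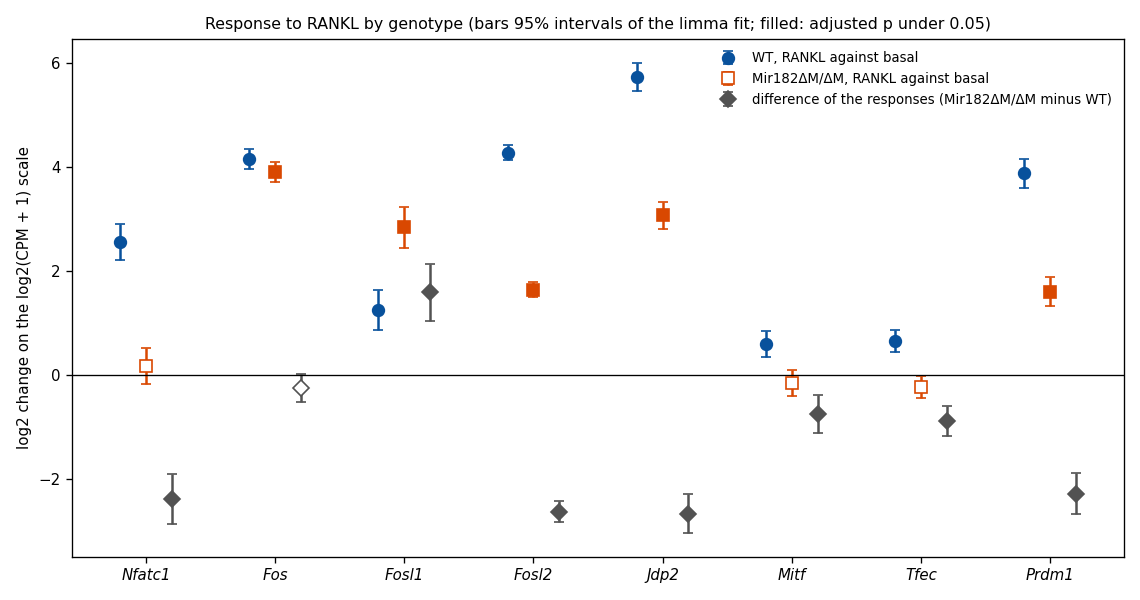
Response to RANKL of the 8 genes in WT (circles) and Mir182ΔM/ΔM (squares) and the difference of the 2 responses (diamonds), as log2 changes on the log2(CPM + 1) scale with 95% intervals from limma; filled symbols passed adjusted p under 0.05. The responses of *Fos* lie side by side at 4.15 and 3.90, while the difference passed the test below 0 for 6 genes and above 0 for *Fosl1* (1.59).

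The counts of members stand against a broad response of the transcriptome. In WT 8 of 8 members were called higher and 0 lower after RANKL, where 40.6% of the 11691 genes tested were called higher and 22.0% lower (28.7% and 30.6% with TMM factors). In Mir182ΔM/ΔM 5 of 8 were called higher and 0 lower, where 30.4% of genes were higher and 26.4% lower. With the replicate block 2 members were lower in Mir182ΔM/ΔM, *Mitf* and *Tfec*, and *Nfatc1* joined those called higher, so that 6 were higher. Over all genes that fit called 42.7% higher and 36.3% lower. Leaving out both WT libraries after RANKL kept the same 5 calls in Mir182ΔM/ΔM. The median log2 change of the 8 was 3.22 in WT against 0.19 over all genes, and 1.62 in Mir182ΔM/ΔM against 0.05. All 8 passed the filter on low values. *Fosl1* did so through the 4 libraries after RANKL alone, since it was under 1 CPM in the 4 basal ones.

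After RANKL, 6 of the 8 genes were lower in Mir182ΔM/ΔM than in WT, *Fosl1* was higher and *Fos* was not called. Over all genes 30.9% were lower and 14.3% higher (20.1% and 20.9% with TMM factors). The log2 differences were -2.70 ± 0.11 for *Jdp2*, -2.61 ± 0.12 for *Prdm1*, -2.45 ± 0.06 for *Fosl2*, -2.38 ± 0.15 for *Nfatc1*, -1.14 ± 0.09 for *Tfec* and -0.84 ± 0.11 for *Mitf*. Their adjusted p-values ran from 6.4e-07 to 7.8e-04. By mean CPM the WT level was 6.54-fold that of Mir182ΔM/ΔM for *Jdp2*, 6.26-fold for *Prdm1*, 5.25-fold for *Nfatc1*, 2.23-fold for *Tfec* and 1.80-fold for *Mitf*. For the difference of the RANKL responses, 6 members were called lower and 1 higher, where 17.1% and 7.44% of all genes were. With TMM factors the median over all genes moved by -0.19 for the WT response, 0.14 for the genotype difference after RANKL and 0.16 for the difference of responses. The calls of the 7 members after RANKL had the same direction with those factors.

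Without RANKL the genotypes differed little in these 8 genes. None was called between Mir182ΔM/ΔM and WT, where 2.71% of genes were higher and 1.10% lower. The log2 differences ran from -0.32 ± 0.12 for *Prdm1* to 0.35 ± 0.08 for *Fos*. At an unadjusted p under 0.05 (limma) *Fos*, *Fosl2*, *Tfec* and *Prdm1* passed. By that p they ranked 578, 1136, 1358 and 1430 of 11691 genes, so at least 1430 genes passed at that level. With the replicate block, *Fos* (0.35, adjusted p = 4.3e-06) and *Fosl2* (0.19, adjusted p = 0.0013) were called higher. *Tfec* (-0.25, adjusted p = 0.0014), *Prdm1* (-0.32, adjusted p = 5.3e-04) and *Mitf* (-0.09, adjusted p = 0.044) were then called lower. These 2 and 3 of 8 stand against 18.6% of all genes higher and 12.7% lower in the same fit. The differences of *Nfatc1*, *Jdp2* and *Fosl1* were 0.0047, -0.03 and 0.09, with 95% intervals that lay between -0.34 and 0.48.

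The miR-182 transgene was compared with Control without RANKL. *Jdp2* had the largest log2 difference, at 14.97 and 13 CPM in Control and 18.7 and 19.7 CPM in Mir182mTg. *Fos* was at 83.4 and 81.0 against 90.0 and 91.4 CPM, and *Fosl2* at 53.4 and 50.5 against 58.0 and 59.2 CPM. *Tfec* was at 28.2 and 29.4 against 30.3 and 33.1 CPM, and *Fosl1* at 5.87 and 3.63 against 4.96 and 4.26 CPM. *Nfatc1* was at 89.5 and 75.1 against 93.1 and 81.2 CPM, and *Mitf* at 88.1 and 75.2 against 81.6 and 76.7 CPM. *Prdm1* was at 8.84 and 7.82 against 10.3 and 8.67 CPM. None of the 8 was called by edgeR, where 0.0993% of the 12081 genes tested were called higher and 0.157% lower. Among the 8, *Jdp2* alone had an unadjusted p under 0.05, with a log2 difference of 0.45 ± 0.11 (adjusted p = 0.38, edgeR). It ranked 278 of the 12081 genes by p, so at least 278 genes passed at that level. With the replicate block 3 members were called higher, *Jdp2* (0.44, adjusted p = 0.0011), *Fosl2* (0.16, adjusted p = 0.02) and *Fos* (0.13, adjusted p = 0.025), where 6.94% of all genes were higher and 8.15% lower.

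The untreated libraries of the 2 experiments did not hold the same levels of the Fos genes. Control BMMs had 6.68-fold the *Fos* CPM of basal WT BMMs and 2.08-fold that of *Fosl2*, levels that were not tested against each other. *Fosl1* was at 184 and 96 reads in Control against 6 and 2 in basal WT. The other 5 genes were between 0.643-fold (*Tfec*) and 1.11-fold (*Jdp2*) of basal WT. Control shares its *Lyz2* and *Ifi202b* levels with WT after RANKL. Set against Control in place of basal WT, WT after RANKL had 7 members higher and 1 lower by edgeR, where 22.4% of 12317 genes were higher and 22.1% lower. The increase of *Fos* was then 1.46 ± 0.08 (2.87-fold by mean CPM) and that of *Fosl2* 3.21 ± 0.08. *Jdp2* was higher by 5.63 ± 0.12, *Prdm1* by 4.31 ± 0.11, *Nfatc1* by 2.77 ± 0.15, *Tfec* by 1.25 ± 0.08 and *Mitf* by 1.09 ± 0.11. *Fosl1* was lower in WT after RANKL than in Control, by a log2 difference of -1.56 ± 0.30 (adjusted p = 0.0097), the reverse of its direction against basal WT. The difference of responses, in a fit chosen after the data were seen, was 2.49 ± 0.09 for *Fos* with Control as the reference (adjusted p = 6.4e-06) against -0.25 with basal WT. For *Nfatc1*, *Fosl2*, *Jdp2*, *Mitf*, *Tfec* and *Prdm1* it was lower in Mir182ΔM/ΔM with either reference, from -2.63 to -1.29 with Control. For *Fosl1* it was 6.75 ± 0.53 with Control (adjusted p = 1.2e-04). Over all 12625 genes this fit called 19.7% higher and 20.7% lower.

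**Figure D3:**
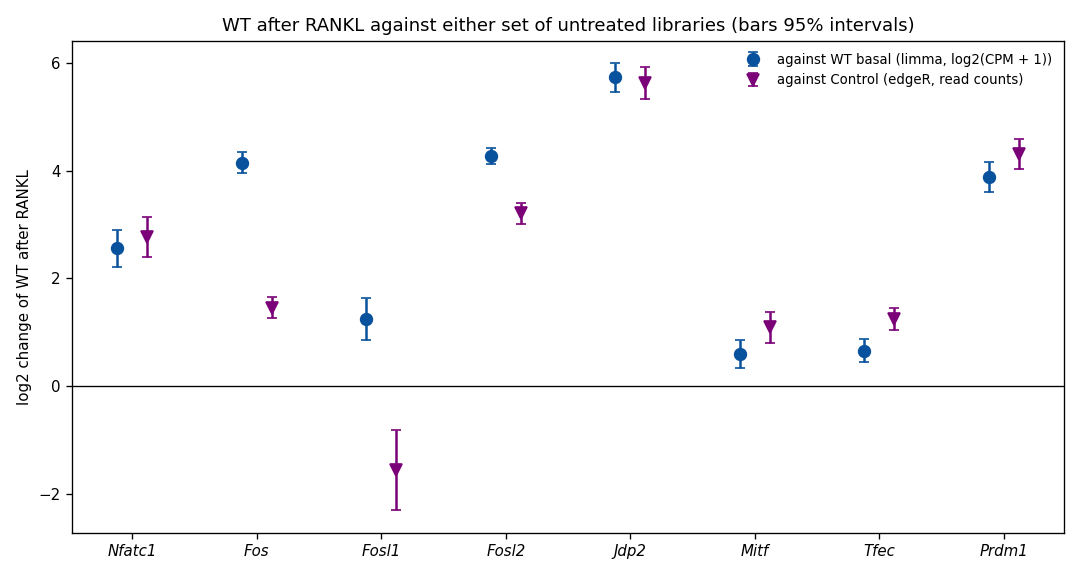
Log2 change of WT after RANKL against basal WT (circles, limma on log2(CPM + 1)) and against Control BMMs (triangles, edgeR on read counts), with 95% intervals. *Fosl1* is at 1.25 against basal WT and -1.56 against Control, *Fos* is at 4.15 and 1.46, and *Jdp2* at 5.74 and 5.63.

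Levels of different genes were set side by side per transcript length, as RPKM of replicate 1, 1 library per condition. In basal WT *Mitf* (24.6) and *Tfec* (24.3) led, followed by *Nfatc1* (14.0), *Jdp2* (6.97), *Fos* (6.25), *Fosl2* (4.25), *Prdm1* (2.29) and *Fosl1* (0.108). In WT after RANKL the order was *Jdp2* (401.8), *Fos* (115.4), *Nfatc1* (87.0), *Fosl2* (85.2), *Tfec* (39.8), *Mitf* (37.2), *Prdm1* (34.4) and *Fosl1* (1.08). In Mir182ΔM/ΔM after RANKL *Fos* led with 122.2, ahead of *Jdp2* (62.0), *Mitf* (20.6), *Tfec* (16.5), *Nfatc1* (16.5), *Fosl2* (15.8), *Prdm1* (5.604) and *Fosl1* (5.39). Among the 4 Fos family genes, with *Fosb*, *Fos* made up 57.2% of the summed RPKM in WT after RANKL and *Fosl2* 42.2%. In Mir182ΔM/ΔM after RANKL these shares were 85.2% and 11%, and that of *Fosl1* was 3.76% against 0.534% in WT. In Control they were 75.1% for *Fos*, 17.2% for *Fosl2* and 6.50% for *Fosl1*. These shares rest on 1 library each and were not tested.

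**Figure D4:**
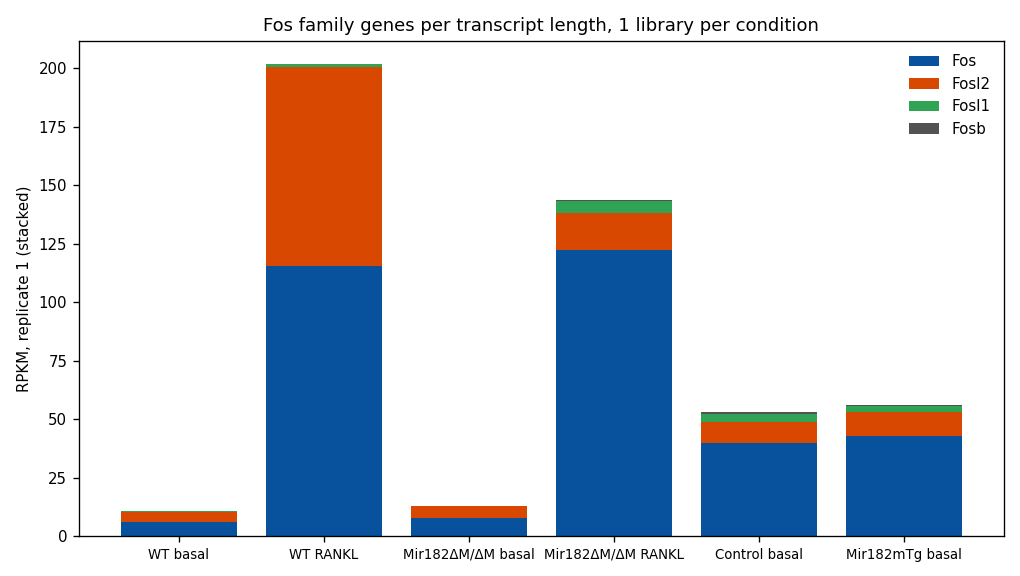
RPKM of *Fos*, *Fosl2*, *Fosl1* and *Fosb*, stacked, in the replicate 1 library of each condition (bars from 0). After RANKL the *Fos* part is 115.4 in WT and 122.2 in Mir182ΔM/ΔM, and the *Fosl2* part is 85.2 in WT and 15.8 in Mir182ΔM/ΔM.

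The order of the conditions differed among the genes. For *Nfatc1* WT after RANKL was highest and the other 5 conditions lay between 75.1 and 122.4 CPM, each overlapping its neighbour in the order. For *Fosl2*, *Jdp2* and *Prdm1* WT after RANKL came first and Mir182ΔM/ΔM after RANKL second, with no overlap, and for *Fosl2* Mir182mTg, Control, basal Mir182ΔM/ΔM and basal WT followed, again without overlap. For *Fos* Mir182ΔM/ΔM and WT after RANKL came first, then Mir182mTg, Control, basal Mir182ΔM/ΔM and basal WT. For *Fosl1* Mir182ΔM/ΔM after RANKL came first, Control and Mir182mTg overlapped in second place, and WT after RANKL was below all 3. For *Mitf* and *Tfec* WT after RANKL was followed by basal WT, and Control or Mir182mTg were lowest.

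Other AP-1 subunits did not follow 1 pattern. Of 9 tested genes of 10, 2 rose and 3 fell in WT, where 40.6% of all genes rose and 22.0% fell. In Mir182ΔM/ΔM 2 rose and 4 fell, where 30.4% of all genes rose and 26.4% fell. *Batf3*, among those that fell in Mir182ΔM/ΔM, was at 0.740 to 1.60 CPM in the basal libraries of the 2 genotypes. It passed the filter on low values through basal libraries alone, so it could only be called lower. *Junb*, a Jun protein that pairs with Fos, rose by 2.50 in WT and 2.62 in Mir182ΔM/ΔM, from 28.5 to 37.3 CPM in the basal libraries to 167.5 to 228.0 CPM. *Jun* fell in both genotypes (-0.57 and -1.07). After RANKL *Atf3*, a stress-induced member of the wider family, was higher in Mir182ΔM/ΔM (1.19, adjusted p = 0.0018), and *Batf* was lower (-1.13, adjusted p = 3.0e-04). *Fosb* was at most 0.518 CPM in the 8 loss of function libraries and was not tested. The median log2 difference after RANKL was -0.25, against -0.14 over all genes, with 2 genes higher and 3 lower. Over all genes 14.3% were higher and 30.9% lower.

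Of 16 genes of calcium and NFAT signaling, 14 were tested. In WT 5 rose and 3 fell, and with TMM factors 2 rose and 4 fell. Over all genes 40.6% rose and 22.0% fell, and 28.7% and 30.6% with TMM factors. *Rcan1*, a calcineurin regulator that NFAT itself induces, rose in both genotypes (1.43 in WT and 0.95 in Mir182ΔM/ΔM) and was lower in Mir182ΔM/ΔM after RANKL (-0.43, adjusted p = 0.007). After RANKL *Itpr1*, a calcium release channel, was higher in Mir182ΔM/ΔM (1.195, adjusted p = 2.1e-05), as was *Nfatc2* (0.81, adjusted p = 0.0039), a relative of *Nfatc1*. *Nfatc2* fell in WT (-0.75) and had a change of 0.07 in Mir182ΔM/ΔM, and these responses differed by 0.82 (adjusted p = 0.027). After RANKL 2 of the 14 were higher and 6 lower in Mir182ΔM/ΔM, and with TMM factors 4 were higher and 2 lower. Over all genes 14.3% were higher and 30.9% lower, and 20.9% and 20.1% with TMM factors. The median of the 14 was -0.26, against -0.14 over all genes.

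Among 6 MiT family genes and partners, *Ppargc1b*, a coactivator of mitochondrial genes in osteoclasts, stood out. It was at 4.25 and 3.65 CPM in basal WT, 54.6 and 49.0 CPM in WT after RANKL, 5.48 and 5.56 CPM in basal Mir182ΔM/ΔM, and 13.7 and 12.4 CPM in Mir182ΔM/ΔM after RANKL. Its responses of 3.42 and 1.11 differed by -2.31 (adjusted p = 1.1e-04). *Spi1*, which encodes PU.1, rose by 1.13 in WT and 0.99 in Mir182ΔM/ΔM. After RANKL 5 of the 6 were called lower in Mir182ΔM/ΔM and 0 higher, but with TMM factors the count was 1, *Ppargc1b*. Over all genes 30.9% were lower and 14.3% higher, and 20.1% and 20.9% with TMM factors. Of the 3 repressors that Blimp1 acts on, *Irf8* fell in both genotypes and further in Mir182ΔM/ΔM (-1.59 and -2.30; difference of responses -0.71, adjusted p = 0.0016). *Bcl6* fell in WT (-0.42, adjusted p = 0.038) and was higher in Mir182ΔM/ΔM than in WT after RANKL (0.72, adjusted p = 0.0061).

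The osteoclast genes on which these factors are known to act moved most. Of 14, 12 rose and 1 fell in WT, where 40.6% of all genes rose and 22.0% fell. In Mir182ΔM/ΔM 11 rose and 1 fell, where 30.4% of all genes rose and 26.4% fell. After RANKL 12 were lower and 1 higher in Mir182ΔM/ΔM (9 and 1 with TMM factors). Over all genes 30.9% were lower and 14.3% higher, and 20.1% and 20.9% with TMM factors. The median difference of the 14 after RANKL was -1.64, against -0.14 over all genes. *Calcr*, *Oscar*, *Dcstamp*, *Ocstamp* and *Car2* were under 1 CPM in every basal library of WT and Mir182ΔM/ΔM. They passed the filter on low values through the libraries after RANKL alone, so the counts that rose include genes that could only be called higher. *Src*, at 0.821 to 1.19 CPM in the basal libraries, also passed only with the libraries after RANKL. *Acp5*, the tartrate-resistant acid phosphatase, was at 2195 and 2466 CPM in WT and 509.8 and 552.6 CPM in Mir182ΔM/ΔM (-2.13, adjusted p = 8.5e-05). *Ctsk*, the collagen-degrading cathepsin K, was at 1778 and 1962 CPM against 492.4 and 546.6 CPM (-1.85, adjusted p = 6.1e-05). *Car2*, the carbonic anhydrase of acid secretion, differed most (-2.95, adjusted p = 3.3e-06). The receptor gene *Calcr* was at 9.777 and 8.997 CPM in WT and 9.07 and 9.68 CPM in Mir182ΔM/ΔM, a difference of -0.0016 (adjusted p = 0.99), and *Itgb3*, the β3 integrin, was higher in Mir182ΔM/ΔM (0.49, adjusted p = 0.0025). This list shares *Acp5*, *Ctsk*, *Calcr*, *Oscar*, *Dcstamp*, *Ocstamp*, *Atp6v0d2* and *Mmp9* with the osteoclast markers. After RANKL the summed CPM of those markers was lower in Mir182ΔM/ΔM than in WT, as were 6 of the 8 factors, but not *Fos* or *Fosl1*. The part of the markers' cell type in these differences was not tested.

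Immediate early genes, which like *Fos* are switched on within minutes by a stimulus, were split. Of 12, 7 rose and 4 fell in WT, where 40.6% of all genes rose and 22.0% fell. In Mir182ΔM/ΔM 7 rose and 3 fell, where 30.4% of all genes rose and 26.4% fell. *Egr3* and *Dusp2* were at 0.336 to 1.08 CPM in the basal libraries of WT and Mir182ΔM/ΔM. They passed the filter on low values only with the libraries after RANKL, so these genes could only be called higher. After RANKL 3 of the 12 were higher and 3 lower in Mir182ΔM/ΔM, and 6 and 2 with TMM factors. Over all genes 14.3% were higher and 30.9% lower, and 20.9% and 20.1% with TMM factors. *Dusp1*, a phosphatase of stress kinases, was at 34.0 and 29.6 CPM in Mir182ΔM/ΔM and 13.3 and 11.6 CPM in WT after RANKL (1.29, adjusted p = 1.0e-04), and at 36.4 and 31.1 CPM in Control and 7.98 and 7.86 CPM in basal WT. *Egr3* was lower in Mir182ΔM/ΔM (-1.04, adjusted p = 0.0069). *Myc* rose in both genotypes (2.99 and 2.40) with a genotype difference after RANKL of 0.0014 (adjusted p = 1).

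Without RANKL no gene of the 6 lists was called between the genotypes, nor between Mir182mTg and Control, in the fits without the replicate block. Those fits called 2.71% of all genes higher and 1.10% lower between the basal genotypes, and 0.0993% and 0.157% between Mir182mTg and Control. Between the basal genotypes the block called 18.6% of all genes higher and 12.7% lower. The counts there were 3 higher and 2 lower for the other AP-1 subunits. They were 1 and 2 each for the calcium and NFAT, MiT and immediate early lists. For the repressors they were 1 and 0, and for the osteoclast genes 2 and 0. Between Mir182mTg and Control the block called 6.94% of all genes higher and 8.15% lower. The counts there were 6 higher and 1 lower of 10 osteoclast genes tested, and 4 and 1 for calcium and NFAT. They were 2 and 3 for the immediate early genes and 0 and 2 for the other AP-1 subunits. For the repressors they were 0 and 1, and for the MiT list 0 and 0. In the WT response, where the block called 52.8% of all genes higher and 29.0% lower, the counts became 8 higher and 4 lower for calcium and NFAT, 4 and 1 for MiT, 2 and 4 for the other AP-1 subunits, and 13 and 1 for the osteoclast genes. In Mir182ΔM/ΔM after RANKL against WT, where it called 23.4% higher and 49.7% lower, they became 3 and 10 for calcium and NFAT, 2 and 5 for the other AP-1 subunits, 1 and 2 for the repressors, and 6 and 4 for the immediate early genes. In the response of Mir182ΔM/ΔM the block called 42.7% of all genes higher and 36.3% lower. The counts became 2 and 5 for the other AP-1 subunits, 4 and 4 for calcium and NFAT, and 3 and 2 for MiT. They became 0 and 2 for the repressors, 12 and 2 for the osteoclast genes, and 8 and 4 for the immediate early genes. For the difference of responses 9 osteoclast genes were lower and 0 higher without the block, and 12 and 1 with it. Over all genes 17.1% were lower and 7.44% higher without the block, and 42.8% and 16.1% with it. For calcium and NFAT the counts went from 2 higher and 1 lower without the block to 3 and 10 with it. They went from 0 and 1 to 0 and 4 for MiT, and from 2 and 2 to 2 and 4 for the other AP-1 subunits. For the repressors they went from 0 and 1 to 1 and 2, and for the immediate early genes from 3 and 0 to 6 and 3.

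**Figure D5:**
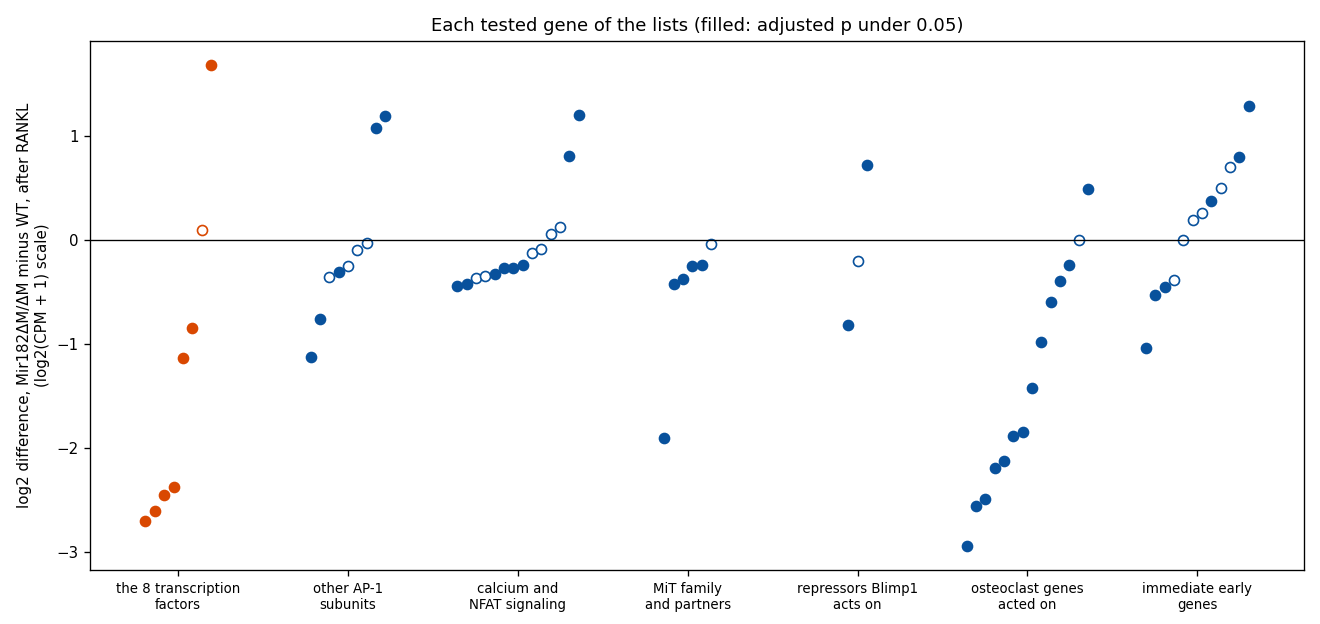
Log2 difference between Mir182ΔM/ΔM and WT after RANKL (log2(CPM + 1) scale) for each tested gene of the 8 factors and of 6 gene lists, 1 point per gene, sorted within each list; filled points passed adjusted p under 0.05. The osteoclast genes reach from -2.95 (*Car2*) to 0.49 (*Itgb3*), and the other AP-1 subunits lie on both sides of 0.

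Genes with the pattern most like each factor were named by Pearson's r of log2(CPM + 1) over the 12 libraries, among 9792 genes with a mean of at least 5 CPM. These 12 points are pairs of replicates in 6 conditions, so the values describe the pattern and nothing more. *Scin* and *Car2* (both r = 0.997) were most like *Jdp2*, and *Rasal2* and *St14* (both 0.995) most like *Prdm1*. *Ankrd13b* (0.995) was among the 3 genes most like *Fosl2*. *Abcb4* (0.993) was most like *Nfatc1*, *Emp2* (0.996) most like *Fos*, and *Ell2* (0.982) most like *Fosl1*. *Ell2* was at 107.3 ± 18.1 CPM (SD, n = 2) in WT after RANKL, 225.6 ± 31.8 CPM in Mir182ΔM/ΔM after RANKL and 157.7 ± 19.8 CPM in Control. *Lrrc61* (0.991) was most like *Tfec* and *Hadha* (0.985) most like *Mitf*. None of the 3 leading genes of one factor was among those of another.

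Markers of B cells, T cells, erythroid cells and mast cells were mostly at or near 0. Summed over 4 markers each, B cell genes were at 0 to 0.306 CPM, T cell genes at 0.0756 to 0.609 CPM and erythroid genes at 0 to 0.179 CPM, and mast cell genes at 0.197 to 1.54 CPM. Dendritic cell genes summed to 6.51 to 7.73 CPM in basal WT and basal Mir182ΔM/ΔM and to 20.6 to 23.2 CPM elsewhere. Most of that sum was *Itgax*, at 5.17 to 21.7 CPM, and no other gene of that list exceeded 2.41 CPM. Neutrophil genes summed to 3.35 to 12.5 CPM after RANKL and 41.1 to 80.9 CPM without. Stromal genes summed to 28.3 to 44.3 CPM in WT after RANKL and to as little as 7.03 CPM elsewhere. Most of that sum was *Col1a1* (0.319 to 13.9 CPM), *Col1a2* (0.696 to 16.0 CPM) and *Runx2* (3.32 to 16.2 CPM). *Sp7* and *Bglap* were at most 0.0798 CPM throughout, and *Alpl* at most 0.151 CPM. The part of neutrophil, dendritic or stromal cells in the results on the 8 factors was not tested.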

How the data were processed

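RNA-seq of 12 libraries was analysed. Replicate 1 was labelled as polyA RNA processed with TopHat and Cufflinks and replicate 2 as total RNA processed with HISAT2, HTSeq and edgeR, per the labels, without versions. The authors deposited CPM for the 8 loss of function libraries, raw counts for the 4 libraries of Control and Mir182mTg, and RPKM in addition for replicate 1. All deposited CPM values came out as whole reads (100%, within 0.01 of a read), and counts were scaled to CPM. Spreadsheet dates stood in place of 27 gene symbols.

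The 8 loss of function libraries were fitted together with limma 3.58.1 (R 4.3.3) on log2(CPM + 1), keeping genes that reached 1 CPM in 2 or more libraries, and Control and Mir182mTg with the quasi-likelihood test of edgeR 4.0.16 with TMM factors and filterByExpr. Adjusted p-values are by Benjamini-Hochberg over all genes tested, with a threshold of 0.05. The fits were also run on simulated counts that held no shared difference between replicate numbers. That run therefore cannot tell how the fits handle the replicate difference in these data. DESeq2 1.42.0 was an alternative for Control and Mir182mTg.

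The named genes are the 8 factors, examples from the fixed lists, and the 3 genes most like each factor. A few of these genes are not reported here. The factors, lists, markers and checks were chosen with earlier results of these data known. Same-numbered replicates deviated together (r of 0.773 to 0.851 over 9807 genes in every pair of conditions), and the labels give each number its own library type, so the number was taken as pairing the libraries. For the 8 factors, a value with this block stands beside a result where it changed a call, and for the lists the blocked counts are given together. Replicates of 1 condition differed beyond sampling noise (mean chi-square per gene of 40.9 to 75.8). The fits with Control as the reference that carry a block or compare responses were added after the data were seen.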

Additional observations from a re-analysis of the deposited data

Results flagged for a closer look

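The response to RANKL differed between WT and Mir182ΔM/ΔM in 7 of the 8 factors, by limma's test of the difference of responses. Over all genes that test called 17.1% lower and 7.44% higher, and 42.8% and 16.1% with the replicate block. On the log2(CPM + 1) scale, the response in Mir182ΔM/ΔM minus that in WT was -2.667 for *Jdp2*, -2.634 for *Fosl2*, -2.385 for *Nfatc1*, -2.283 for *Prdm1*, -0.8872 for *Tfec* and -0.7513 for *Mitf*. It was 1.591 for *Fosl1*, the factor with the fewest reads. These values rest on the WT libraries after RANKL, which differ from the basal WT libraries in *Lyz2* and *Ifi202b*, and the 2 cannot be told apart.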

How the results depend on the processing

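Over all alternatives, 179 counts of members were within 1.5 times the reported count, though some differed by 1, and 19 were not. Of the levels, 34 moved by less than the SD of the replicates and 14 by more. For single members 741 values kept their direction and side of the threshold. Another 26 newly passed the threshold, 2 no longer did and 16 changed sign. With Control as the reference, 1 member was lower in the WT response, with or without the replicate block (*Fosl1*, -1.56 and -1.54), 2 were higher in the difference of responses, and that of *Fos* became 2.49. In Mir182ΔM/ΔM the members lower after RANKL were 1 with TMM factors, 1 with edgeR on the recovered reads, 2 with the replicate block and 2 with the block and TMM factors. Leaving out 1 library gave 0 to 1, the 1 being *Tfec* without Mir182ΔM/ΔM RANKL replicate 2 (-0.34, adjusted p = 0.023 by limma). Between the basal genotypes the block gave 2 higher and 3 lower, as did the block with TMM factors. Without RANKL the difference of *Nfatc1* was -0.01034 with TMM factors, with or without the block, and -0.009615 with edgeR. After RANKL the members higher in Mir182ΔM/ΔM were 0 at a mean of at least 5 CPM, where *Fosl1* was not tested, and 2 with TMM factors, with edgeR, and with the block and TMM factors. In the difference of responses they were 0 at that mean and 0 with edgeR (*Fosl1*, 1.82, adjusted p = 0.15), and *Mitf* missed the threshold with no filter on low values (adjusted p = 0.07). Against Control, 3 members were higher in Mir182mTg with the block. The block changed no call of a member other than those given. Leaving out 1 library at a time, basal genotype differences ran from -0.113 to 0.1224 for *Nfatc1*, -0.1708 to 0.1047 for *Jdp2* and -0.1884 to 0.002868 for *Mitf*. For Mir182mTg against Control they ran from -0.04269 to 0.2021 for *Nfatc1*, -0.35 to 0.3357 for *Fosl1* and -0.1592 to 0.0602 for *Mitf*. The causes of these changes were not tested. With 2 replicates per condition and 2 to 6 basal reads, *Fosl1* is the factor that depth limits most.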
